A study of Arabidopsis thaliana with 6 samples.

Results

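The aquaporin genes PIP1A (AT3G61430), PIP1B (AT2G45960), PIP1C (AT1G01620), PIP2A (AT3G53420), PIP2B (AT2G37170), PIP2-7 (AT4G35100), TIP1-1 (AT2G36830), TIP1-2 (AT3G26520) and TIP2-1 (AT3G16240) were followed through RNA immunoprecipitation sequencing (RIP-seq) of the protein ASI1 in Arabidopsis thaliana. These 9 genes were chosen by gene identifier, out of 6351 genes that at least 1 of the authors' tables lists. The WT table listed all 9 and the ASI1 table listed 7, without PIP1A and PIP2B. ASI1 is a nuclear RNA-binding protein that is known to act on transcripts with heterochromatin in their introns, and RIP-seq measures which RNAs are recovered together with a protein.

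The groups were ASI1 RIP (2 libraries), ASI1 input (1 library), WT RIP (2 libraries) and WT input (1 library). All were whole Col-0 seedlings aged 14 d, grown at 22 °C and crosslinked with 0.5% formaldehyde, and all precipitations used an anti-Flag antibody. The RIP libraries are called precipitates here. That ASI1 carries a Flag tag in the ASI1 line, and that WT is untagged, follows from the choice of antibody and the sample names and is not stated in the labels. The promoter of the tagged gene, the number of lines used and the origin of the replicates were not given in the sources used here. P-values therefore measure only the spread between these samples, which may be technical. The ASI1 transcript itself (AT5G11470) had 114 and 201 counts in the ASI1 precipitates and 2.54 in ASI1 input RNA, and was not listed in the WT table. These counts are not scaled for the counts outside ribosomal RNA (rRNA), which were fewer in the input. As CPM outside rRNA, defined below, the transcript stood at 254 and 554 in the ASI1 precipitates and 107 in ASI1 input RNA. The 95% counting interval of the input, 18.1 to 339, included replicate 1 but not replicate 2.

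Aquaporins are membrane channels that let water, and in some cases small neutral solutes or carbon dioxide, cross a membrane along its gradient. Plasma membrane intrinsic proteins (PIPs) serve the outer membrane of the cell, and tonoplast intrinsic proteins (TIPs) serve the membrane of the vacuole. They assemble as tetramers in which each subunit has its own pore. In maize, PIP1 proteins are known to depend on PIP2 partners to reach the plasma membrane. In seedlings, aquaporin transcripts are among the abundant messenger RNAs of roots and leaves.

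The pore of each of the 9 proteins is lined by 2 boxes of the residues Asn-Pro-Ala. The 60 coding bases that start 3 codons before the first box are shown because they show how far the members can be told apart by sequence. The capitals mark the codons of the box. All stretches lie within 1 coding exon and were read 5′ to 3′ from the RefSeq genome TAIR10.1 by gene identifier, since the build behind the counts is not given in the sources used here. RD28, a PIP2 gene next to PIP2B that neither table lists, is added for comparison.
PIP1A (chr3:22734251-22734310, plus strand): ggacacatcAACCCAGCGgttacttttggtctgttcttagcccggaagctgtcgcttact
PIP1B (chr2:18911005-18911064, plus strand): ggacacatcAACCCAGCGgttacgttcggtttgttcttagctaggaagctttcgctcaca
PIP1C (chr1:226630-226689, minus strand): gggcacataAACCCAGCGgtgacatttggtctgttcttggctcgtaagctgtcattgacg
PIP2A (chr3:19804618-19804677, minus strand): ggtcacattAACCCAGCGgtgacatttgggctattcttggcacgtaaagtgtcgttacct
PIP2B (chr2:15614308-15614367, minus strand): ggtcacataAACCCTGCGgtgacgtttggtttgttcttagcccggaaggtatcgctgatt
PIP2-7 (chr4:16709052-16709111, plus strand): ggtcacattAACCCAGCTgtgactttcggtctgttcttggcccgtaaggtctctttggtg
TIP1-1 (chr2:15445733-15445792, plus strand): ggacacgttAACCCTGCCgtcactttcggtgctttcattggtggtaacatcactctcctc
TIP1-2 (chr3:9723398-9723457, minus strand): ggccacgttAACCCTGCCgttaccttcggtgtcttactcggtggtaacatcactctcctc
TIP2-1 (chr3:5505874-5505933, plus strand): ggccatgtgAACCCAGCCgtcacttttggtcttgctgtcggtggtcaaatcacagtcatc
RD28 (chr2:15618203-15618262, plus strand): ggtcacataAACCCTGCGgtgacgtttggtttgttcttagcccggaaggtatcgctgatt

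The stretches of PIP2B and RD28 differed at 0 of 60 bases, whereas PIP1A and PIP1B differed at 8, TIP1-1 and TIP1-2 at 8, and PIP2A and PIP2B at 15. Over the whole coding sequence PIP2B and RD28 were 94.8% identical, with a shared run of 242 bases. The next closest pairs among these 10 genes were PIP1A and PIP1B at 87.6%, PIP2A and PIP2B at 86.1%, PIP2A and RD28 at 83.9%, PIP1B and PIP1C at 82.0%, PIP1A and PIP1C at 81.6%, and TIP1-1 and TIP1-2 at 81.5%. PIPs and TIPs were farther apart, with 55.7% between PIP2A and TIP1-2.

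**Figure D1:**
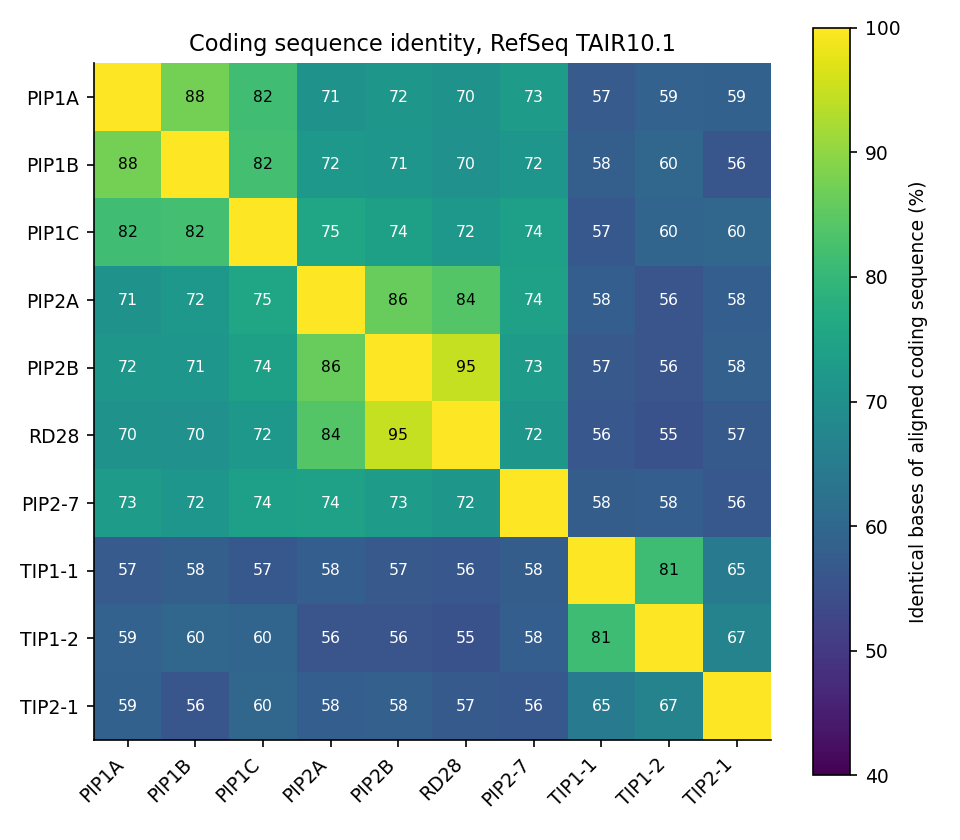
Percentage of identical bases in the aligned coding sequences of the 9 aquaporins and RD28, from RefSeq TAIR10.1. PIP and TIP genes form separate blocks, and PIP2B with RD28 is the closest pair at 94.8%.

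Of the 50-base windows in PIP2B transcripts, 19.6% (254 of 1296) also occurred in RD28, so PIP2B counts are uncertain where the authors' counting could split reads between these genes. In TIP2-1 the share was 6.23% (71 of 1140), all with AT3G16250 (PnsB3), which overlaps TIP2-1 on the opposite strand. The other 7 members shared 0 windows with any other gene. TIP2-1 also overlaps AT3G03265 on the opposite strand, and whether counting used strand is not given in the sources used here. PnsB3 was listed in the WT table only, at 89.2 and 10.14 CPM outside rRNA in the precipitates and 33.4 in the input.

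Most counts of every library came from ribosomal RNA (rRNA). Levels are therefore given as CPM outside rRNA, meaning CPM computed on the counts outside the 4 listed rRNA genes, and a transcript with 20 or more counts in a library is called covered there. Counts outside rRNA numbered 448561 and 362058 in the ASI1 precipitates against 23810 in ASI1 input RNA, and 23304 and 103549 in the WT precipitates against 61644 in WT input RNA. A single count was thus worth 2.23 and 2.76 CPM outside rRNA in the ASI1 precipitates and 42.0 in ASI1 input RNA, and 42.9 and 9.66 in the WT precipitates and 16.2 in WT input RNA. Intervals and floors cover counting error only. Each table holds only genes above 0 in at least 2 of its 3 libraries.

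Although PIP2A lay above TIP2-1 in replicate 2, mean levels in the ASI1 precipitates were highest for TIP1-2, PIP1B, PIP2-7 and TIP2-1. These 4 of 7 listed members were covered in both ASI1 precipitates, as were 35.8% of all 4016 listed genes outside rRNA. The same 4 lay above ASI1 input RNA in both precipitates as CPM outside rRNA, against a background of 23.6% of genes. For PIP2-7 this order was fixed in advance. With 0 counts in ASI1 input RNA, it could be listed only if above 0 in both precipitates. PIP1C lay below ASI1 input RNA in both (1 of 7, background 24.4%). Both counts were the same with libraries scaled by the trimmed mean of M-values (TMM) as in the fit, beside backgrounds of 30.6% and 9.74%. No member was covered in ASI1 input RNA (0 of 7, background 3.54%). The remaining members, PIP2A and TIP1-1, lay below the input in replicate 1 and above it in replicate 2. In whole seedlings, fewer cells of a type and less RNA per cell cannot be told apart.

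**Figure D2:**
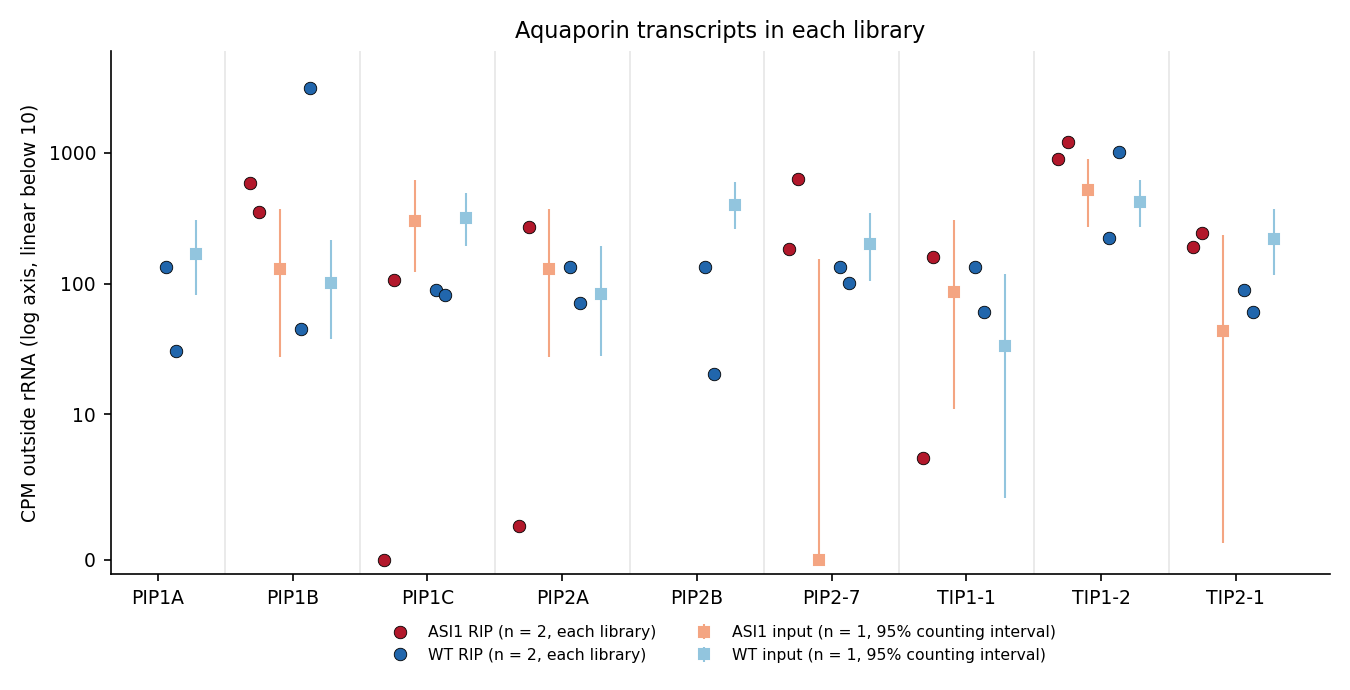
Level of each aquaporin in each library, as CPM outside rRNA on a log axis that is linear below 10. Circles are single RIP libraries (2 per genotype), squares are the single inputs with their 95% counting interval. TIP1-2 is high in every library, PIP1B reaches 3092 in WT RIP replicate 2, and PIP1A and PIP2B have WT values only.

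Among the PIP1 genes, PIP1B, which contributes to root water uptake and to carbon dioxide transport in leaves, had 263 and 128 counts in the ASI1 precipitates, 3.09 in ASI1 input RNA, 1.04 and 320.2 in the WT precipitates and 6.18 in WT input RNA. As CPM outside rRNA it stood at 587 and 355 in the ASI1 precipitates, 130 in ASI1 input RNA, 44.6 and 3092 in the WT precipitates and 100.3 in WT input RNA. Both ASI1 precipitates lay between the WT precipitates, so the RIP groups overlapped and WT RIP replicate 2 held the highest value of any member in any library.

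PIP1C, another PIP1 water channel, had 0 and 38.6 counts in the ASI1 precipitates, 7.20 in ASI1 input RNA, 2.08 and 8.40 in the WT precipitates and 19.6 in WT input RNA. Its levels were 0 and 107 CPM outside rRNA in the ASI1 precipitates, 302 in ASI1 input RNA, 89.2 and 81.1 in the WT precipitates and 318 in WT input RNA. All 4 RIP values lay below both inputs, which were close to each other. PIP1A, listed in WT alone, had 3.12 and 3.15 counts in the precipitates and 10.3 in the input, or 134 and 30.4 against 167 CPM outside rRNA.

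Among the PIP2 genes, PIP2-7, a plasma membrane water channel, had 82.6 and 228 counts in the ASI1 precipitates and 0 in ASI1 input RNA, and 3.12 and 10.5 in the WT precipitates against 12.4 in WT input RNA. Its levels were 184 and 629 CPM outside rRNA in the ASI1 precipitates, against 134 and 101 in the WT precipitates and 201 in WT input RNA. The ASI1 input was so shallow that it would hold 4.78 counts at the level of WT input RNA. Set against a floor of 3 counts in ASI1 input RNA, the ASI1 precipitates were 1.46-fold and 4.99-fold higher. The exact 95% counting interval of precipitate over input, on 0 input counts and with error in both libraries, began at 1.17-fold and 4.03-fold.

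PIP2A, a channel of root and guard cells, had 1.05 and 97.1 counts in the ASI1 precipitates, 3.09 in ASI1 input RNA, 3.12 and 7.35 in the WT precipitates and 5.15 in WT input RNA. Its ASI1 RIP levels of 2.33 and 268 CPM outside rRNA enclosed the WT RIP levels of 134 and 71.0 and both inputs, at 130 and 83.6. PIP2B, which contributes to root water transport, was listed in WT alone with 3.12 and 2.10 counts in the precipitates and 24.7 in the input. That is 134 and 20.3 against 401 CPM outside rRNA, so both precipitates lay below the input.

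Among the TIP genes, TIP1-2, a water channel of the vacuole membrane, had 402 and 438 counts in the ASI1 precipitates, 12.3 in ASI1 input RNA, 5.20 and 105 in the WT precipitates and 25.8 in WT input RNA. Its levels were 897 and 1209 CPM outside rRNA in the ASI1 precipitates, 518 in ASI1 input RNA, 223 and 1014 in the WT precipitates and 418 in WT input RNA. In the ASI1 RIP it lay above 96.3% and 97.9% of listed genes, and WT RIP replicate 2 fell between the ASI1 precipitates.

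TIP2-1, which carries water and ammonia across the vacuole membrane, had 85.7 and 87.7 counts in the ASI1 precipitates, 1.03 in ASI1 input RNA, 2.08 and 6.30 in the WT precipitates and 13.4 in WT input RNA. Its levels were 191 and 242 CPM outside rRNA in the ASI1 precipitates, 43.2 in ASI1 input RNA, 89.2 and 60.8 in the WT precipitates and 217 in WT input RNA. The ASI1 precipitates lay above the WT precipitates, and WT input RNA lay between the ASI1 precipitates. TIP1-1, the abundant vacuolar water channel of many tissues, had 3.14 and 57.4 counts in the ASI1 precipitates, 2.06 in ASI1 input RNA, 3.12 and 6.30 in the WT precipitates and 2.06 in WT input RNA. Its ASI1 RIP levels of 6.99 and 159 CPM outside rRNA enclosed the WT RIP levels of 134 and 60.8.

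Compared per length, as CPM outside rRNA per kb of exon, TIP1-2 led the ASI1 RIP at 816 ± 171 (SD, n = 2). PIP1B followed at 295 ± 103, PIP2-7 at 254 ± 196, TIP2-1 at 182 ± 30.4, PIP2A at 86.0 ± 120, TIP1-1 at 66.9 ± 86.7 and PIP1C at 34.4 ± 48.7. From PIP1B downward, neighbours in this order did not differ beyond their spread, while TIP1-2 stood apart from PIP1B by more than both SDs. In the WT RIP the order was led by PIP1B at 982 ± 1349 and TIP1-2 at 479 ± 433 (SD, n = 2), and the other 7 members lay between 52.8 and 78.7.

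In the single inputs TIP1-2 had the highest level per kb, at 402 in ASI1 input RNA and 324 in WT input RNA. In ASI1 input RNA PIP1C followed at 195, then PIP2A at 82.4, PIP1B at 81.1, TIP1-1 at 69.8, TIP2-1 at 36.3 and PIP2-7 at 0. In WT input RNA PIP2B followed at 298, then PIP1C at 205, TIP2-1 at 183, PIP2-7 at 125, PIP1A at 107, PIP1B at 62.8, PIP2A at 53.1 and TIP1-1 at 27.0. TIP1-2 thus led both inputs and the ASI1 RIP. Computed on counts rounded to whole numbers, 28 against 84, the summed level of the 7 shared members was 0.863 times as high in ASI1 input RNA as in WT input RNA (95% exact interval 0.542 to 1.34). PIP2-7 was the single member whose input ratio had an interval below 1 (0 against 12 counts, upper bound 0.932). For TIP2-1 the ratio was 0.199 (0.00469 to 1.33) on 1 against 13 counts.

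**Figure D3:**
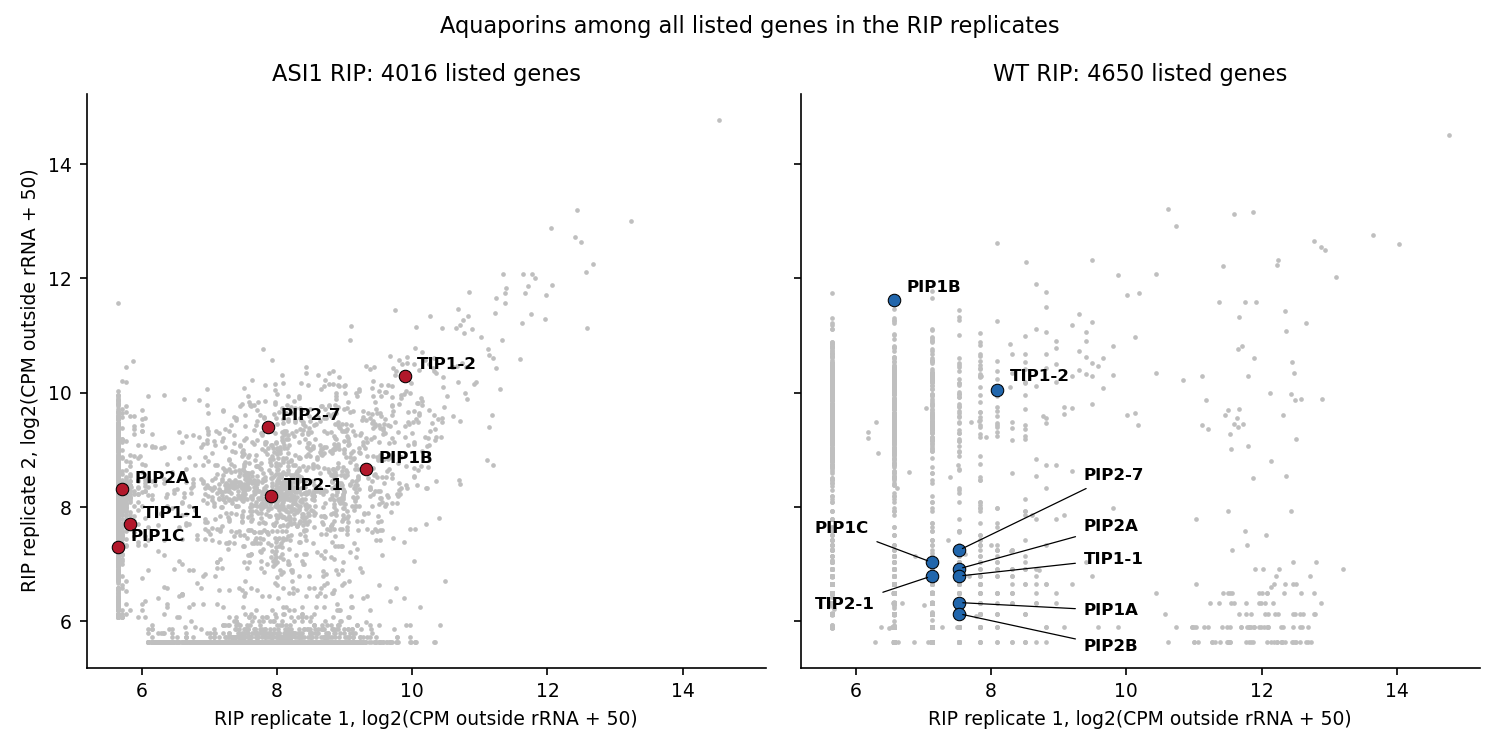
RIP replicate 2 against RIP replicate 1 for all listed genes outside rRNA (grey) and the aquaporins (coloured, named), as log2 of CPM outside rRNA plus 50, for ASI1 RIP (left) and WT RIP (right). PIP2A, TIP1-1 and PIP1C lie at the left edge of the ASI1 panel, and PIP1B stands far above the other aquaporins in WT replicate 2.

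The RIP replicates differed widely. Covered in 1 ASI1 precipitate only were PIP1C, PIP2A and TIP1-1 (3 of 7, background 59.8% counting either replicate). For these 3 members it was replicate 2. On the log2 scale with 50 CPM added, the gap between ASI1 RIP replicates had a median size of 1.54 over the 7 members and 1.81 over all listed genes. TIP2-1 and TIP1-2 were the closest, at 0.28 and 0.41, while PIP2A differed 6.08-fold after 50 CPM was added to both values. Between WT RIP replicates the median gap was 0.73 for the 9 members and 0.69 for all genes. PIP1B alone had a gap of 5.05 in WT, larger than in 97.4% of genes.

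Summed over the 7 shared members, aquaporins held 1869 and 2968 CPM outside rRNA in the ASI1 precipitates, 1209 in ASI1 input RNA, 847 and 4481 in the WT precipitates and 1370.4 in WT input RNA. The ASI1 RIP sums lay between the WT RIP sums. Without PIP1B, a sum chosen after its values were seen, they were 1282 and 2613 in the ASI1 precipitates, 1080 in ASI1 input RNA, 803 and 1389 in the WT precipitates and 1270.2 in WT input RNA, so the overlap of the RIP groups remained. PIP1B held 68.2% of the aquaporin counts of WT RIP replicate 2, over all 9 members, and 4% of those of replicate 1.

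**Figure D4:**
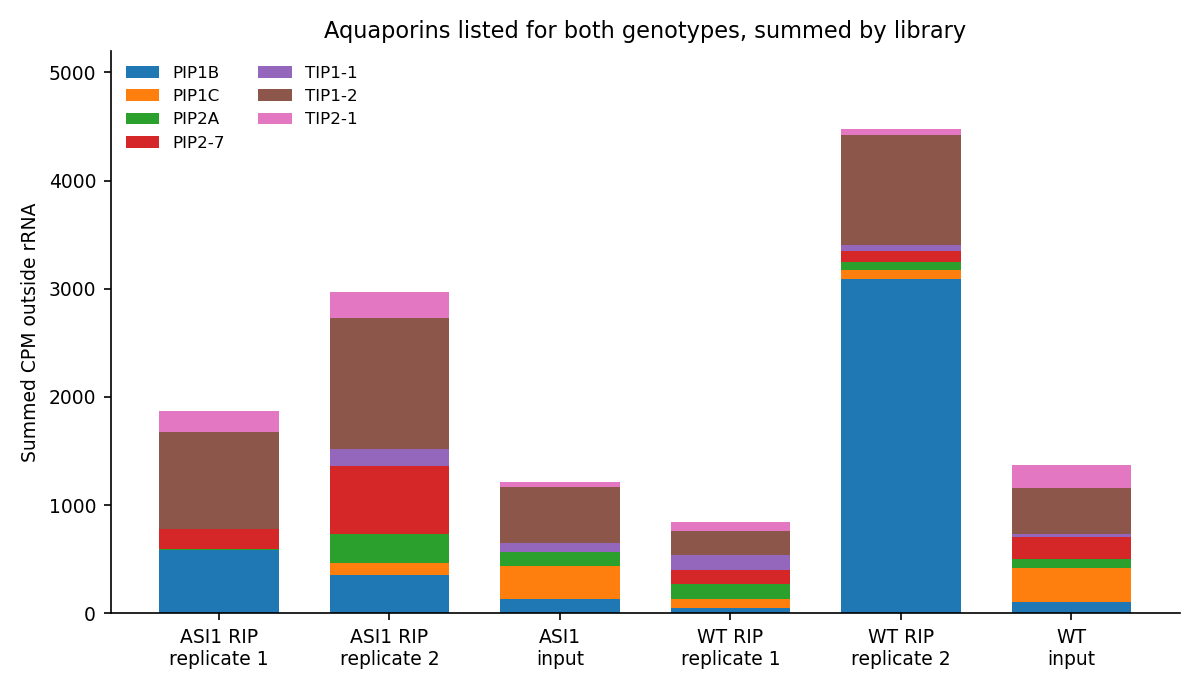
Summed CPM outside rRNA of the 7 aquaporins that both tables list, stacked by gene, for each of the 6 libraries. The ASI1 RIP bars reach 1869 and 2968, and the WT RIP bars 847 and 4481, of which 3092 is PIP1B.

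Setting the ASI1 precipitates against their input asks which aquaporin RNAs were recovered with ASI1 above their share of seedling RNA. TIP2-1 lay 4.42-fold above the input in replicate 1 (95% exact counting interval 0.798 to 182) and 5.61-fold in replicate 2 (1.01 to 231). PIP1B lay 4.53-fold above it (1.57 to 22.7) and 2.74-fold (0.939 to 13.8). TIP1-2, with the best covered input, lay 1.73-fold above it (1.01 to 3.47) and 2.33-fold (1.36 to 4.68). For PIP1C the ratio was 0 in replicate 1 (upper bound 0.0368) and 0.353 in replicate 2 (0.162 to 0.971).

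All 6 libraries were fitted together with edgeR's quasi-likelihood test, in which inputs are assumed to vary like the RIP libraries. Genes with a log2 fold of at least 1 in size and a Benjamini-Hochberg adjusted p under 0.05 were called. In the ASI1 RIP over its input 0 of 7 members were called, against 0.0433% (1 of 2312) of all genes. The fitted log2 fold was 3.43 (SE 3.92) for TIP2-1, 2.91 (3.53) for PIP1B and 2.17 (3.48) for TIP1-2, with adjusted p = 1.00 for each in edgeR. For PIP2-7 it was 9.28 (SE 5.99, adjusted p = 1.00 in edgeR), a value that depends on how the fit treats the 0 in the input. PIP2A, TIP1-1 and PIP1C, not covered in both ASI1 precipitates, had log2 folds of 1.35, 1.20 and -1.18. Without ASI1 RIP replicate 1 the values were 2.42 for TIP2-1, 1.40 for PIP1B and 1.18 for TIP1-2. Without ASI1 RIP replicate 2 they were 1.98, 2.03 and 0.65 for these genes, and without WT RIP replicate 2, which enters through the shared scaling, 2.31, 1.82 and 1.02. The median of the members was 2.17, beside 1.13 over all genes, and 6 of 7 members lay above 0, as did 75.3% of all genes. Of these 6, PIP2A and TIP1-1 lay at -5.42 and -3.62 without ASI1 RIP replicate 2. At an unadjusted p under 0.05 edgeR had 0 members and 3 genes, and DESeq2 0 members and 11 genes. DESeq2 called 0 members and 0.0865% of genes. The authors' deposited table gives log2 folds of 9.83 for PIP2-7, 2.43 for TIP2-1, 1.97 for PIP1B and 1.14 for TIP1-2, with an FDR of 1 for every member.

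The WT RIP over its input gives the recovery without a tag. As CPM outside rRNA, TIP1-1 lay above the input in both WT precipitates (1 of 9, background 15.5%), and PIP1A, PIP1C, PIP2B, PIP2-7 and TIP2-1 lay below it in both (5 of 9, background 54.5%). No member was covered in both WT precipitates (0 of 9, background 1.31%). Covered in 1 WT precipitate only were PIP1B and TIP1-2, both in replicate 2 (2 of 9, background 20% counting either replicate). In WT input RNA PIP2B and TIP1-2 were covered (2 of 9, background 9.89%). With TMM scaling, PIP2A, PIP2-7 and TIP1-1 lay above the input in both (3 of 9, background 25.3%) and PIP1C, PIP2B and TIP2-1 below it (3 of 9, background 37.7%). PIP2-7 thus stood on opposite sides of its input on the 2 scales.

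PIP1B was 0.445 times its input in WT RIP replicate 1 (95% exact counting interval 0.00958 to 3.63) and 30.8 times in replicate 2 (14.4 to 87.2). TIP1-2 was 0.534 times its input in replicate 1 (0.153 to 1.35) and 2.43 times in replicate 2 (1.55 to 3.85). For both genes replicate 1 lay below the input and replicate 2 above it. PIP2B stood at 0.0505 times its input in replicate 2 (0.00547 to 0.191) and TIP2-1 at 0.280 times (0.0856 to 0.775).

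edgeR called 0 of 7 members in the WT RIP over its input, against 0.0433% (1 of 2312) of all genes. The fitted log2 fold was 5.44 (SE 4.02) for PIP1B, 1.91 (3.41) for TIP1-2, 0.36 (3.13) for PIP2-7 and -0.42 (3.13) for TIP2-1, with adjusted p = 1.00 for each in edgeR. TIP1-1, PIP2A and PIP1C had log2 folds of 2.54, 1.34 and -0.81. When WT RIP replicate 2 was left out, the value was -0.58 for PIP1B and -0.38 for TIP1-2, so the direction of both rests on that library. The median of the members was 1.34, beside -0.18 over all genes. At an unadjusted p under 0.05 edgeR had 0 members and 7 genes, and DESeq2 0 members and 62 genes. With the WT table fitted alone and no filter on low counts, PIP2B had a log2 fold of -1.82 and PIP1A of -0.35, both with an adjusted p of 0.942 in edgeR.

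**Figure D5:**
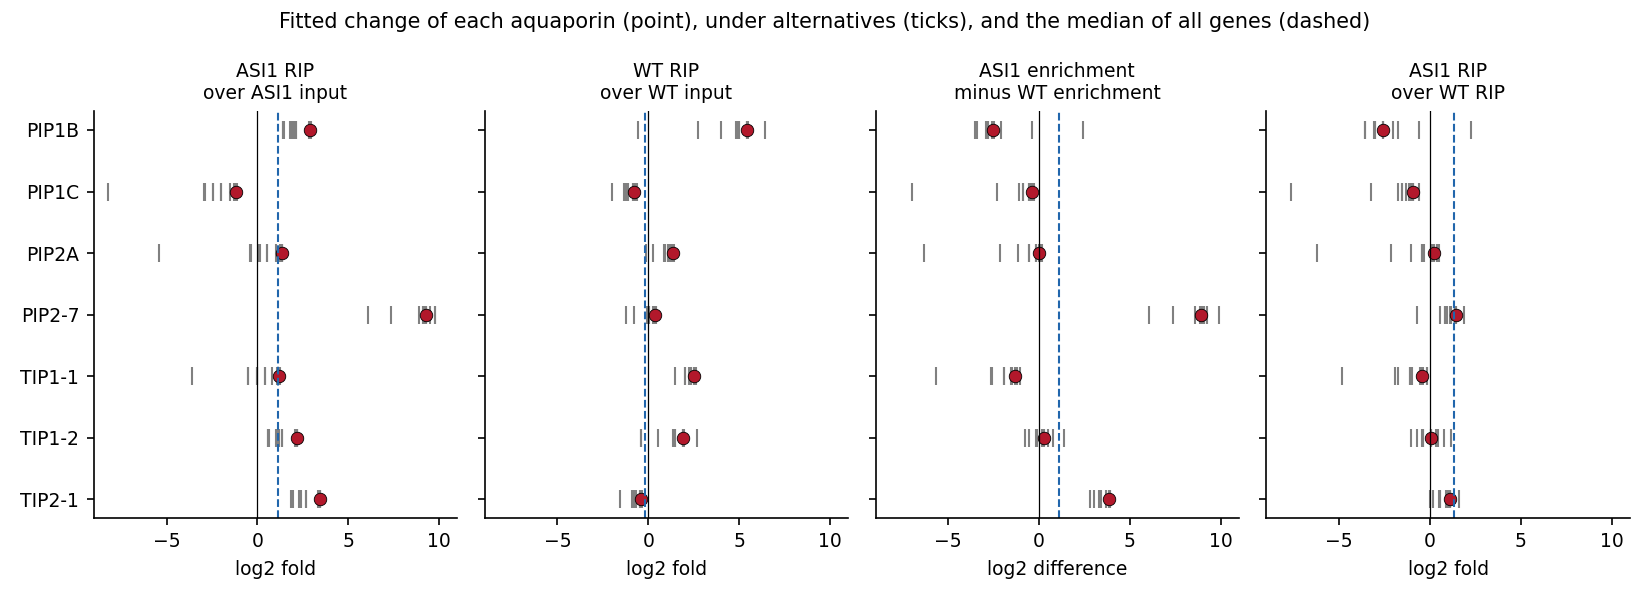
Fitted log2 fold (points) of the 7 aquaporins in both tables for ASI1 RIP over ASI1 input, WT RIP over WT input, the difference of these, and ASI1 RIP over WT RIP. Grey ticks are the values under the alternatives and dashed lines the median of all 2312 genes. PIP2-7 is far right in the panels that use ASI1 input RNA, where it had 0 counts, and no aquaporin was called in any panel.

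ASI1 RIP was then set against WT RIP, which asks what was recovered with ASI1 beyond the untagged background. As CPM outside rRNA, PIP2-7 and TIP2-1 lay higher in both ASI1 precipitates than in both WT precipitates (2 of 7, background 26%). PIP2-7 averaged 406 ± 314 in the ASI1 RIP and 118 ± 22.9 in the WT RIP, and TIP2-1 averaged 217 ± 36.2 in the ASI1 RIP and 75.0 ± 20.05 in the WT RIP (SD, n = 2 each). No member lay lower in both (0 of 7, background 4.74%, or 6.51% with TMM scaling). With TMM scaling TIP2-1 alone kept the order (1 of 7, background 22.9%). On that scale PIP2-7 had 11.1 and 49.7 CPM in the ASI1 precipitates, against 10.8 and 12.4 in the WT precipitates, and the groups overlapped.

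Both genes were covered in both ASI1 precipitates and in neither WT RIP library (2 of 7, background 25.1%). Of the genes covered in both ASI1 precipitates, 62.1% were likewise uncovered in both WT precipitates, as were 2 of the 4 such members. At the ASI1 RIP levels of TIP2-1, WT RIP replicate 2 would hold 19.8 to 25.1 counts, against 6.30 measured, and replicate 1 would hold 4.45 to 5.65, against 2.08. For PIP2-7 these would be 19.1 to 65.1 counts in WT RIP replicate 2, against 10.5 measured, and 4.29 to 14.7 in replicate 1, against 3.12. The depth of WT RIP replicate 1 could thus show little difference for TIP2-1, or for PIP2-7 at its lower ASI1 RIP level.

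In the direct fit, edgeR called 0 of 7 members and 0% of 2312 genes in the ASI1 RIP over the WT RIP, where DESeq2 called 0 members and 0.735% of genes. The log2 fold was 1.45 (SE 2.56) for PIP2-7, 1.13 (2.62) for TIP2-1, 0.08 (2.53) for TIP1-2 and -2.59 (2.56) for PIP1B, with adjusted p of at least 0.949 in edgeR. PIP2A, TIP1-1 and PIP1C had log2 folds of 0.20, -0.43 and -0.96. Without WT RIP replicate 2 the value for PIP1B was 2.26, and without ASI1 RIP replicate 2 that for PIP2-7 was -0.73. For TIP2-1 it was 0.48 without ASI1 RIP replicate 1, 0.0011 without ASI1 RIP replicate 2 and 0.18 without WT RIP replicate 2. With DESeq2 the value for TIP1-2 was -0.39. The median of the members was 0.08, beside 1.32 over all genes, and 1 of 7 members lay above that median. At an unadjusted p under 0.05 edgeR had 0 members and 18 genes, and DESeq2 0 members and 144 genes.

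The difference of enrichments, ASI1 minus WT, sets each RIP against its own input before the genotypes are compared. On CPM outside rRNA, PIP2-7 and TIP2-1 lay above the input in both ASI1 precipitates and below it in both WT precipitates (2 of 7, background 12%). With TMM scaling this held for TIP2-1 only (1 of 7, background 12.6%). The opposite pattern was seen in 0 of 7 members (background 2.85%). edgeR called 0 of 7 members and 0% of genes. The log2 difference was 8.92 (SE 6.64) for PIP2-7, 3.85 (4.84) for TIP2-1, 0.26 (4.41) for TIP1-2 and -2.53 (4.43) for PIP1B, with adjusted p = 1.00 for each in edgeR. PIP2A, PIP1C and TIP1-1 had log2 differences of 0.00, -0.38 and -1.34. The values for PIP2-7 and TIP2-1 rest on ASI1 input counts of 0 and 1.03. With 0 input counts, PIP2-7 had to lie above ASI1 input RNA in both precipitates to be listed at all. Without WT RIP replicate 2 the difference for PIP1B was 2.40. The median of the members was 0.00, beside 1.11 over all genes. At an unadjusted p under 0.05 edgeR had 0 members and 1 gene, and DESeq2 0 members and 18 genes.

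Of 26 other aquaporins, 5 were listed in either table and 21 in neither, among them every nodulin-like aquaporin and every other TIP. PIP1;5, a plasma membrane aquaporin, had 1.05 and 37.6 counts in the ASI1 precipitates, 1.03 in ASI1 input RNA, 0 and 35.7 in the WT precipitates and 2.06 in WT input RNA. PIP2E, another PIP2, had 0 and 19.8 counts in the ASI1 precipitates, 9.26 in ASI1 input RNA, 1.04 and 31.5 in the WT precipitates and 15.5 in WT input RNA. Both stood higher in replicate 2 than in replicate 1 of each genotype. As CPM outside rRNA, PIP1;5 had 2.33 and 104 in the ASI1 precipitates against 43.2 in the input. In WT it had 0 and 345 against 33.4. PIP2E had 0 and 54.8 in the ASI1 precipitates, both below the input at 389. In WT it had 44.6 and 304 against 251. In WT alone PIP2;8 had 0 and 5.25 counts in the precipitates and 64.9 in the input, PIP1;4 had 0 and 3.15 against 2.06, and SIP1A had 0 and 1.05 against 2.06. PIP2;8 was the highest aquaporin of WT input RNA at 1053 CPM outside rRNA. Of the listed pair tested, 0 were called in any of the 4 comparisons.

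Proton pumps of the plasma membrane and tonoplast, which set up the gradients that drive solute and hence water uptake, gave a second membrane group. Of 37 such genes, 9 were listed in both tables and 20 in the WT table, and edgeR called 0 of 9 in each comparison. Their median log2 fold was 0.65 in the ASI1 RIP over input and 0.51 in the WT RIP over input, beside 1.13 and -0.18 over all genes. It was 0.31 for the difference and 0.11 in the ASI1 RIP over the WT RIP, beside 1.11 and 1.32 over all genes. The plasma membrane pump HA1 stood at 340.3 and 712 CPM outside rRNA in the ASI1 precipitates, 2203 in ASI1 input RNA, 580 and 1298 in the WT precipitates and 5398 in WT input RNA, so every RIP library lay below both inputs. The plasma membrane pump HA2 had 510.4 and 773 in the ASI1 precipitates, 1512 in ASI1 input RNA, 981 and 3305 in the WT precipitates and 2072 in WT input RNA. The vacuolar pump subunit VHA-A3 had 594 and 37.5 in the ASI1 precipitates, 346 in ASI1 input RNA, 0 and 1247 in the WT precipitates and 2173 in WT input RNA.

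The 5 genes whose levels across the 6 libraries were most like the mean of the 7 shared members were PRK, AVP1, TUA6, BBX14 and PDIL1-1, out of 899 with a mean of at least 200 CPM outside rRNA. Their root mean square distance on the log2 scale was 0.30, 0.44, 0.46, 0.52 and 0.54, against a median of 1.42 over the 899. PRK is a Calvin cycle enzyme, AVP1 the proton-pumping pyrophosphatase of the vacuole, TUA6 an alpha-tubulin, BBX14 a B-box protein and PDIL1-1 a protein disulfide isomerase. The members themselves lay between 0.55 for TIP1-2 and 1.52 for PIP1B. The 5 genes were picked as the nearest of 899, so their distances cannot be compared with those of the members. PRK stood at 364 and 591 CPM outside rRNA in the ASI1 precipitates, 432 in ASI1 input RNA, 223 and 659 in the WT precipitates and 468 in WT input RNA.

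Leaf markers also stood at different levels in the groups. Of 10 leaf photosynthesis genes 9 were listed in both tables, with a sum of 10248 and 6472 CPM outside rRNA in the ASI1 precipitates, 22743 in ASI1 input RNA, 16240 and 50747 in the WT precipitates and 43531 in WT input RNA. Their median log2 fold was -2.94 in the ASI1 RIP over the WT RIP, beside 1.32 over all genes, with 0 of 9 called. The part of these leaf genes in the aquaporin values was not tested. Of 8 root genes 3 were listed in both tables, summing to 454 and 574 in the ASI1 precipitates, 1987 in ASI1 input RNA, 401 and 203 in the WT precipitates and 752 in WT input RNA. None of 7 seed storage genes was listed in either table (0 of 7). As 21 of 26 other aquaporins and 17 of 37 proton pumps were also in neither, this absence says little about the seedling label.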

How the data were processed

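Expected counts (estimated reads, not always whole numbers) of each gene were deposited in 1 table for each genotype, per the file headers. The deposited tables also give CPM on the listed totals, the authors' log2 ratio between precipitate and input, and their p-value and FDR. The tools named were STAR 2.6.0c, Salmon 0.10.2 and edgeR, per the submitters' processing notes. The genome build, strandedness and count filters were not given in the sources used here. Steps of 1.03 to 1.05 counts explained 95.0% to 98.2% of a library's values as whole multiples (tolerance 0.02), and the members' values were as well.

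The expected counts were rounded and fitted with edgeR 4.0.16 (glmQLFit, glmQLFTest; limma 3.58.1, R 4.3.3) over the 2323 genes in both tables, with TMM on listed totals and filterByExpr, which kept 2312. Residual degrees of freedom were 2 and the common dispersion 2.19. SE is the log2 fold divided by the square root of F, an approximation. DESeq2 1.42.0, other scalings, left-out replicates and single tables were alternatives. Counting intervals are exact (Poisson or conditional binomial, 95%). Sequences came from the RefSeq TAIR10.1 genome and annotation with Biopython 1.88, matched by identifier (all listed identifiers matched). Tables and plots used Python 3.11.15, matplotlib 3.10.9, scipy 1.17.1, numpy 2.4.6 and pandas 2.3.3.

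All 9 members were named, with the other listed aquaporins, the 3 proton pumps of highest mean level and the 5 genes nearest the members' mean. Fitted folds are given for every member, with SE for the 4 covered in both ASI1 RIP libraries. That cover was read from the same libraries that the folds use. The members and lists were chosen with earlier results of these data known. No pairing by replicate number is given in the sources used here. Deviations of same-numbered RIP libraries correlated at -0.0152 over 2319 genes. That value cannot show that they are unpaired, since the low depth of WT RIP replicate 1 limits it. Replicates of one group differed by more than sampling noise, with a chi-square per degree of freedom of 75.5 in the ASI1 RIP and 16.8 in the WT RIP.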

Additional observations from a re-analysis of the deposited data

Results flagged for a closer look

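PIP2-7 and TIP2-1 stood out because both ASI1 precipitates lay above their input while both WT precipitates lay below theirs, as CPM outside rRNA. The fitted log2 difference in enrichment, ASI1 minus WT, was 8.92 for PIP2-7 and 3.85 for TIP2-1, beside a median of 1.11 over all genes. These 2 values rest on ASI1 input counts of 0 for PIP2-7 and 1.03 for TIP2-1. The ASI1 part of the pattern was fixed for PIP2-7, since a listed gene with 0 input counts is above 0 in both precipitates. The counting interval of TIP2-1 over its input in ASI1 RIP replicate 1 was 0.798 to 182, so it included 1. The test of the difference itself gave an adjusted p of 1.00 for both in edgeR, and 12% of all genes showed the same pattern. With TMM scaling PIP2-7 lay above WT input RNA in both WT precipitates, at 10.8 and 12.4 against 8.95 CPM, and no longer showed the pattern. TIP2-1 kept the pattern on that scale, beside a background of 12.6% of genes. It stood at 11.5 and 19.2 CPM in the ASI1 precipitates against 1.42 in ASI1 input RNA. In the WT precipitates it stood at 7.21 and 7.42 CPM against 9.70 in WT input RNA.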

How the results depend on the processing

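No member was called in any of the 4 comparisons under the alternatives run for it, which tested 7 members, except that the WT table fitted alone tested 6, or 9 with no filter. For TIP1-2, PIP1B, PIP2-7 and TIP2-1, 167 of 187 values under alternatives kept their direction and 20 did not. The alternative with no abundance trend returned the same folds as the main fit, so its values could not turn.

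The number of genes called in ASI1 RIP over input was 1, and was 2 with RLE size factors, 2 with library sizes from counts outside rRNA, 2 with DESeq2, 0 with no abundance trend, 13 with the table alone, 17 with the table alone and no filter (added after seeing the data), and 1 to 10 with 1 RIP library left out. In WT RIP over input it was 1, and was 0 with DESeq2, 0 with no trend and 0 with the table alone. For the difference it was 0, and was 1 with RLE and 0 to 1 with 1 library left out. In ASI1 RIP over WT RIP it was 0, and was 1 with RLE, 17 with DESeq2 and 0 to 3 with 1 library left out.

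The median of the members in ASI1 RIP over input (2.17) was 1.38 with RLE and with DESeq2, 1.06 with sizes outside rRNA, 0.56 with the table alone, 0.61 with the table alone and no filter, and 0.65 to 2.16 with 1 library left out. In WT RIP over input (1.34) it was 1.08 with RLE, 1.09 with DESeq2, 0.24 with sizes outside rRNA, 1.42 without rRNA genes, -0.79 with the table alone, 0.29 with the table alone and no filter, and -0.38 to 1.17 with 1 library left out. For the difference (0.00) it was -0.54 with RLE, -0.55 with DESeq2 and -2.91 to 1.40 with 1 library left out. In ASI1 RIP over WT RIP (0.08) it was -0.45 with RLE and with DESeq2 and -3.05 to 0.18 with 1 library left out. The scale also moved the median of all genes: in ASI1 RIP over input it was 1.13 with TMM, 0.35 with RLE and 0.10 with sizes outside rRNA, and in WT RIP over input it was -0.18, -0.51 and -1.39.

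Of these 4 members, directions turned for 3. PIP2-7 in WT RIP over input (0.36) was -0.80 with sizes outside rRNA, -1.22 with the table alone and -0.061 to 0.42 with 1 library left out, and -0.73 to 1.36 in ASI1 RIP over WT RIP. TIP1-2 in WT RIP over input (1.91) was -0.37 with the table alone and -0.38 to 2.70 with 1 library left out. Its difference (0.26) was -0.11 with RLE and with DESeq2 and -0.79 to 1.40 with 1 library left out, and in ASI1 RIP over WT RIP (0.08) it was -0.39 with RLE and with DESeq2 and -1.05 to 1.14. PIP1B ranged from -0.58 to 6.41 in WT RIP over input, from -3.51 to 2.40 in the difference and from -3.58 to 2.26 in ASI1 RIP over WT RIP, and turned without WT RIP replicate 2. Of the other shared members, PIP2A turned in 17 of 47 values, TIP1-1 in 5 of 46 and PIP1C in 0 of 46. In ASI1 RIP over input PIP2A (1.35) ranged from -5.42 to 1.38 and TIP1-1 (1.20) from -3.62 to 1.23. PIP2A ranged from -6.19 to 0.49 in ASI1 RIP over WT RIP. The cause was not tested.

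With libraries scaled by TMM instead of counts outside rRNA, a choice made after seeing the data, 3 members rather than 1 lay above the input in both WT RIP libraries, 3 rather than 5 below it, and 1 rather than 2 lay higher in both ASI1 RIP than in both WT RIP libraries or moved oppositely in the genotypes. With the replicate block the median of the members was -0.41 for the difference and -0.61 in ASI1 RIP over WT RIP. The block changed no call, and whether same-numbered libraries belong together is not given in the sources used here. No paired analysis was possible for RIP over input because each input is a single library. Depth limits the ASI1 input and WT RIP replicate 1, where 1 count is worth 42.0 and 42.9 CPM outside rRNA.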
